A study of Mus musculus with 2 samples.

Results

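The 9 genes described here encode the transcription factors that guide cells of the gut and pancreas into the hormone-producing endocrine lineage. They were chosen by name (Neurog3, Neurod1, Insm1, Nkx2-2, Pax4, Rfx6, Pax6, Isl1 and Lmx1a), and all 9 were found among the 43346 Ensembl genes measured. The samples were 2 RNA-seq libraries of small intestine from adult C57BL/6J mice of both sexes, pooled, at 8 weeks of age, which form 1 group of biological replicates 1 and 2. C57BL/6J is an inbred laboratory strain, and the labels record no treatment and name no segment of the intestine. RNA longer than 200 nt was poly(A)-selected, freed of ribosomal RNA and read from both ends in stranded reads of 76 nt. With 1 group of n = 2, no test between conditions existed, and each value below is that of a replicate or the mean ± SD of both.

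Enteroendocrine cells are scattered hormone-secreting cells of the gut lining. They arise in the crypts from secretory progenitors that escape Notch signalling, and a brief pulse of Neurog3 commits a progenitor to the lineage. Neurog3 then switches on further factors, among them Neurod1, Insm1, Nkx2-2, Pax4 and Rfx6, and factors such as Pax6, Isl1 and Lmx1a act later, when the hormone a cell makes is settled. The same factors serve in the islets of the pancreas and, in part, in neurons. In whole tissue, fewer endocrine cells and less RNA per cell cannot be told apart.

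The libraries held 45472946 and 45822403 expected counts, that is, estimated fragments per gene. Both carried the defining transcripts of intestinal epithelium, since all 8 genes of that list had at least 1 TPM (transcripts among each 1e6, a level corrected for transcript length) in both replicates. Replicate 1 had 1138 TPM of that list in all and replicate 2 had 5353 TPM, led by Anpep (512 and 2687 TPM), Krt20 (234 and 779 TPM), Vil1 (159 and 739 TPM) and Lct (55.5 and 341 TPM). Replicate 1 also carried high levels of transcripts of pancreas and stomach. The acinar list of 11 genes of the exocrine pancreas summed to 181736 and 1636 TPM, and the stomach list of 11 genes to 20022 and 51.8 TPM. For the 9 islet genes the sums were 103 and 3.78 TPM. The median of the 12260 genes that averaged 1 TPM or more lay 0.66 log2 units higher in replicate 2, on the log2(TPM + 1) scale, so a member with equal TPM in both libraries lay below the median gene.

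All 9 factors had counts in both libraries, and all were at low levels. Together they took 1012 counts (12.2 TPM) in replicate 1 and 1227 counts (16.4 TPM) in replicate 2, a mean of 14.3 ± 2.98 TPM (SD, n = 2). In both replicates, 4 of the 9 reached 1 TPM (Neurog3, Insm1, Nkx2-2 and Isl1), and 25.8% of all Ensembl genes did. By mean TPM the order was Insm1, Isl1, Nkx2-2, Neurog3, Pax6, Neurod1, Rfx6, Pax4 and Lmx1a. Insm1 ranked 8940 and Lmx1a 14798 of the 43346 genes, and 20643 genes had any count. The ranges of the replicates overlapped between most neighbours in this order. They were separate between Nkx2-2 and Neurog3, between Neurod1 and Rfx6, and, by 0.01 TPM, between Pax4 and Lmx1a. Credibility intervals overlapped in each of these pairs. They did so for Nkx2-2 and Neurog3 within replicate 2, and for Pax4 and Lmx1a within both replicates. For Neurod1 and Rfx6 the overlap was between replicate 1 of Neurod1 and replicate 2 of Rfx6.

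**Figure D1:**
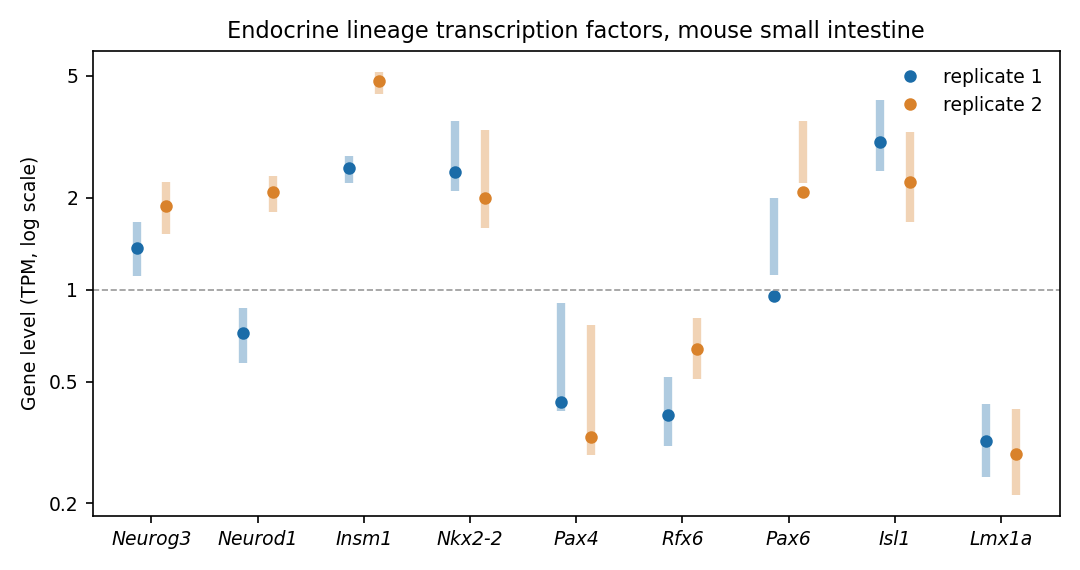
Level of each factor in TPM (log scale) in replicate 1 and replicate 2, with points for the deposited TPM and bars for the deposited credibility interval, whose level is not stated in the file. Insm1 and Isl1 had the highest means and Lmx1a the lowest, the bars of Neurod1, Insm1 and Pax6 were apart between replicates, and both Pax6 points lay below their own bars.

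Neurog3, the basic helix-loop-helix factor that starts the endocrine programme (ENSMUSG00000044312.3, chromosome 10, 62133090 to 62134763, plus strand, GRCm38), was at 1.37 TPM in replicate 1 (91 counts) and 1.88 TPM in replicate 2 (98 counts). Its credibility intervals, 1.11 to 1.66 TPM and 1.52 to 2.25 TPM, overlapped. The gene has 1 annotated transcript in the tables and lies inside the span of Fam241b, a protein-coding gene on the opposite strand, which was at 4.97 and 9.07 TPM. The reads were stranded, but whether the counting used strand is not stated, here or for the antisense genes below. Neurog3 was present in both libraries at nearly equal counts. Proteins of this class bind E-boxes, whose letters are CANNTG, and the 250 bases before the Neurog3 start in RefSeq (GRCm38.p6, chr10:62132840-62133089, plus strand) hold 1, in capitals, 165 bases before the start and in the form CAGCTG. The window is shown because Neurog3 starts the programme in which these factors act, not because of its level.
Neurog3: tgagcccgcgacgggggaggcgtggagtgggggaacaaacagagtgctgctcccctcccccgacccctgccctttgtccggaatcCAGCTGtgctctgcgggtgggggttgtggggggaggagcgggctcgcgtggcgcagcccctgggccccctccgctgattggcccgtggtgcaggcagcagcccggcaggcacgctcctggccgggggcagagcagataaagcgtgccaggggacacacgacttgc

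Neurod1, a related factor that Neurog3 switches on and that supports hormone genes in mature cells (ENSMUSG00000034701.9, chromosome 2, 79452521 to 79456751, minus strand), had the largest ratio of TPM between the replicates. It was at 0.72 TPM in replicate 1 (91 counts) and 2.09 TPM in replicate 2 (207 counts), with intervals of 0.577 to 0.871 TPM and 1.79 to 2.36 TPM. Replicate 2 was therefore above replicate 1 with intervals apart. Neurog3 and Neurod1 had the same 91 counts in replicate 1, and TPM divides these by effective lengths of 1304 nt for Neurog3 and 2493 nt for Neurod1. Cerkl, which overlaps Neurod1 on the same strand, was at 0.41 and 0.25 TPM, and Gm26755, a long noncoding RNA on the opposite strand, had no counts in either library, where 3 counts would have given 0.0244 and 0.0312 TPM.

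Insm1, a zinc-finger factor needed for endocrine differentiation (ENSMUSG00000068154.5, chromosome 2, 146221921 to 146225020, plus strand), had the highest mean of the family at 3.65 ± 1.63 TPM (SD, n = 2). It was at 2.50 TPM in replicate 1 (364 counts) and 4.80 TPM in replicate 2 (545 counts), with intervals of 2.23 to 2.74 TPM and 4.35 to 5.15 TPM, again apart. Insm1 held the most counts of the 9 factors in each library. No other measured gene overlaps it.

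Nkx2-2, a homeodomain factor that directs the choice between hormone cell types (ENSMUSG00000027434.11, chromosome 2, 147177546 to 147194243, minus strand), was at 2.43 TPM in replicate 1 (196 counts) and 2.00 TPM in replicate 2 (104 counts). The intervals, 2.1 to 3.56 TPM and 1.59 to 3.33 TPM, overlapped. The coding transcript Nkx2-2-201, of 2120 nt, took 192 and 99.1 counts and 82.7% and 66.1% of the gene's TPM. Nkx2-2-202, annotated as a noncoding transcript of 340 nt, took 15.5% and 31.1% of TPM from only 2 and 3 counts, because TPM divides by a short effective length. The antisense gene Nkx2-2os had no counts, and 6430503K07Rik, also antisense, had 5 and 0 counts. RefSeq's start of Nkx2-2, at the first exon of Nkx2-2-201, is preceded within 250 bases (GRCm38.p6, chr2:147186403-147186652, minus strand) by 3 E-boxes, the most among the members' windows. They lie 220, 197 and 173 bases before the start, in capitals.
Nkx2-2: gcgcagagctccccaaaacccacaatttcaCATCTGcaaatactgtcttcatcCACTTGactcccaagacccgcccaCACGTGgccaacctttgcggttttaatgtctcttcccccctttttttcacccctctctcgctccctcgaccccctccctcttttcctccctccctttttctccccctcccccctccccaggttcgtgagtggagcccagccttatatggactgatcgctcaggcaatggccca

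Pax4, a paired-homeodomain factor that in islets favours beta and delta cells (ENSMUSG00000029706.11, chromosome 6, 28442334 to 28449353, minus strand), had the fewest counts of the family. It was at 0.43 TPM in replicate 1 (23 counts) and 0.33 TPM in replicate 2 (13 counts), with overlapping intervals of 0.40 to 0.904 TPM and 0.289 to 0.764 TPM. The transcript given most of its TPM differed between libraries, Pax4-201 with 79.6% in replicate 1 and Pax4-202 with 100% in replicate 2. Pax4-205, also coding, took the remaining 20.4% in replicate 1 and 0% in replicate 2. At 23 and 13 counts this difference was not resolved, since the posterior mean shares of Pax4-201 were 26.0% and 13.4% and those of Pax4-202 13.8% and 41.0%.

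Rfx6, a winged-helix factor of endocrine progenitors and of hormone cells (ENSMUSG00000019900.13, chromosome 10, 51677756 to 51730432, plus strand), was at 0.39 TPM in replicate 1 (57 counts) and 0.64 TPM in replicate 2 (72 counts). Its intervals of 0.309 to 0.517 TPM and 0.510 to 0.808 TPM overlapped narrowly. The gene has 2 coding transcripts with different first exons in the tables, and all counts in both libraries were assigned to Rfx6-201, which starts at 51685518. Rfx6-202, which starts upstream at 51677756, was given none, with posterior mean shares of 6.41% and 7.09%. Rfx6-201 is the shorter form, with 16 exons and 1989 coding bases, against 19 exons and 2781 coding bases for Rfx6-202. The 250 bases before the start of Rfx6-201 in RefSeq (GRCm38.p6, chr10:51685268-51685517, plus strand), shown because all reads were given to this start, hold no E-box.
Rfx6: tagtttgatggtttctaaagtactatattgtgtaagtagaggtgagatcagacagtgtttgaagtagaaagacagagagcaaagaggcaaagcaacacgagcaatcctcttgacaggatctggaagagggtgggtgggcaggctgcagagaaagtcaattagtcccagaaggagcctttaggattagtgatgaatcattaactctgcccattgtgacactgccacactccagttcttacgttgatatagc

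Of the 9 members, 7 had a RefSeq promoter entry, in 8 windows, and 6 of the 8 held CANNTG on either strand (the pattern reads the same on both). Among all 32851 windows of 250 bases 66.2% held it. The form CAGATG or its reverse CATCTG was in 1 member window and in 14.4% of all windows, and CAGCTG in 2 and in 13.0%. These are matches of letters only.

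Pax6, which carries a paired domain and a homeodomain and supports several hormone cell types (ENSMUSG00000027168.17, chromosome 2, 105668900 to 105697364, plus strand), was at 0.95 TPM in replicate 1 (45 counts) and 2.09 TPM in replicate 2 (89 counts). The credibility intervals, 1.12 to 1.99 TPM and 2.23 to 3.56 TPM, were apart, but overlapped on the FPKM scale. Pax6 was the only member whose TPM lay outside its own interval, in both libraries, and its 26 transcripts are the most of the family. The antisense gene Pax6os1, which overlaps its start, had no counts, where 3 counts would have given 0.0741 and 0.0935 TPM. Most of the level was not assigned to transcripts that encode the full factor. Pax6-210, annotated as noncoding and 983 nt long, was given 87.3% of the gene's TPM in replicate 1 (31.4 of 45 counts) and 79.3% in replicate 2 (50.1 of 89 counts). By posterior means its share was 48.4% and 53.7%. All protein-coding transcripts together came to 0.06 TPM (7.63 counts) and 0.30 TPM (31.1 counts).

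All bases of Pax6-210 lie in exons of coding transcripts, so reads separate it only by its junctions and ends. Single reads were not examined, so whether any cross its own junction is not known. It joins the first exon of the gene to the exon at 105691565 and so lacks exons 2 to 6 of Pax6-207, a coding transcript from the same first exon. These 5 exons span 105679810 to 105685943, hold 654 bases, and lie on both sides of exon 5a, the alternative exon within the paired box. The 15 bases on each side of the first junction show the difference, with the first exon (chr2:105669035-105669049) in lower case and the next exon in capitals (GENCODE M21, GRCm38, plus strand; the capitals are chr2:105691565-105691579 in Pax6-210 and chr2:105679810-105679824 in Pax6-207).
Pax6-210: accctcggctcacagATGGCTGCCAGCAAC
Pax6-207: accctcggctcacagGCAGAAGACTTTAAC

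Exon 5a of Pax6 (chr2:105684751-105684792, plus strand, 42 bases) lengthens the coding sequence to 1308 bases from 1266 and changes how the paired domain binds DNA. The 4 full coding transcripts with it took 0 and 10.96 counts, and the 4 without it took 7.63 and 18.05 counts in replicates 1 and 2. With so few counts, forms with and without the exon could not be compared.
Pax6 exon 5a: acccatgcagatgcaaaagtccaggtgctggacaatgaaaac

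**Figure D2:**
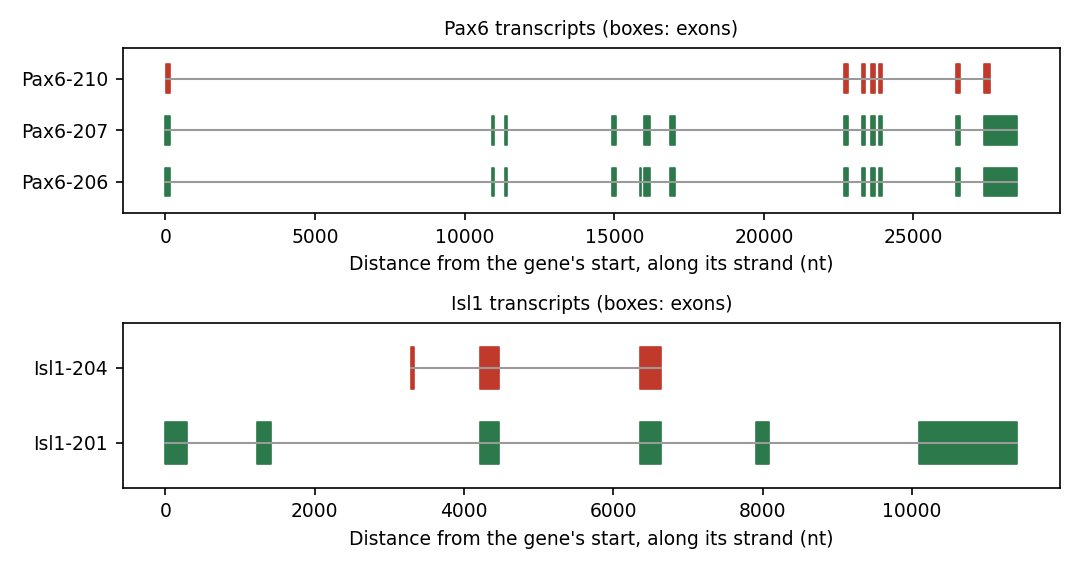
Exons (boxes) of annotated Pax6 and Isl1 transcripts against distance from the gene's start in nt along its strand, with the noncoding transcript that took most of each gene's TPM in red and coding transcripts in green. Pax6-210 lacks exons 2 to 6 of Pax6-207, and Isl1-204 has a first exon of 41 bases of its own and otherwise shares sequence with Isl1-201.

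Isl1, a LIM-homeodomain factor of hormone cells and of neurons (ENSMUSG00000042258.9, chromosome 13, 116298281 to 116309689, minus strand), was at 3.04 TPM in replicate 1 (95 counts) and 2.25 TPM in replicate 2 (63 counts). Its intervals of 2.44 to 4.16 TPM and 1.66 to 3.28 TPM overlapped. As for Pax6, a short noncoding transcript took most of the TPM. Isl1-204, of 588 nt, was given 73.1% and 63.5% of TPM, from 39.9 and 20.9 counts. The full coding transcript Isl1-201, of 2516 nt, had more counts than that, 45.6 and 33.0, but only 12.9% and 16.2% of TPM. Isl1-203, annotated as a retained intron, took 13.97% and 18.3%. The 41 bases of Isl1-204 that lie in no coding transcript are its first exon (GENCODE M21, GRCm38, chr13:116306357-116306397, minus strand), which lies in an intron of Isl1-201. They are shown because they, with their junction, set it apart. Whether single reads cover these bases was not examined. In the junction lines the last 15 bases of the upstream exon are in lower case and the shared exon (chr13:116305463-116305477) is in capitals.
Isl1-204 first exon: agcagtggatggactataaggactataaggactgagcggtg
Isl1-204: aaggactgagcggtgGTTGTACGGGATCAA
Isl1-201: aagagattatatcagGTTGTACGGGATCAA

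Lmx1a, a LIM-homeodomain factor of serotonin-producing enterochromaffin cells (ENSMUSG00000026686.10, chromosome 1, 167689237 to 167848741, plus strand), was the lowest member at 0.32 TPM in replicate 1 (50 counts) and 0.29 TPM in replicate 2 (36 counts). Its intervals of 0.244 to 0.423 TPM and 0.214 to 0.407 TPM overlapped almost fully. Of its 2 coding transcripts, Lmx1a-201 took 60.3% of TPM in replicate 1 and 100% in replicate 2, and Lmx1a-202, which starts upstream, took 39.8% and 0%. Lmx1a lay close to Pax4 in both libraries.

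Counting only protein-coding transcripts, a choice made once the values were known, moved Isl1 and Pax6 down the order. Coding Isl1 was at 0.39 and 0.41 TPM (0.40 ± 0.014, SD, n = 2), and coding Pax6 at a mean of 0.18 ± 0.17 TPM, the lowest mean of the 9. That rank rests on replicate 1, where coding Pax6 was at 0.06 TPM. In replicate 2 it was at 0.30 TPM, beside 0.29 TPM for Lmx1a. Coding Nkx2-2 was at 2.05 and 1.38 TPM. The other 6 members had coding transcripts only, among those with counts, and kept their values. On this measure 3 of the 9 reached 1 TPM in each library (Neurog3, Insm1 and Nkx2-2), and the family summed to 8.23 and 12.1 TPM.

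**Figure D3:**
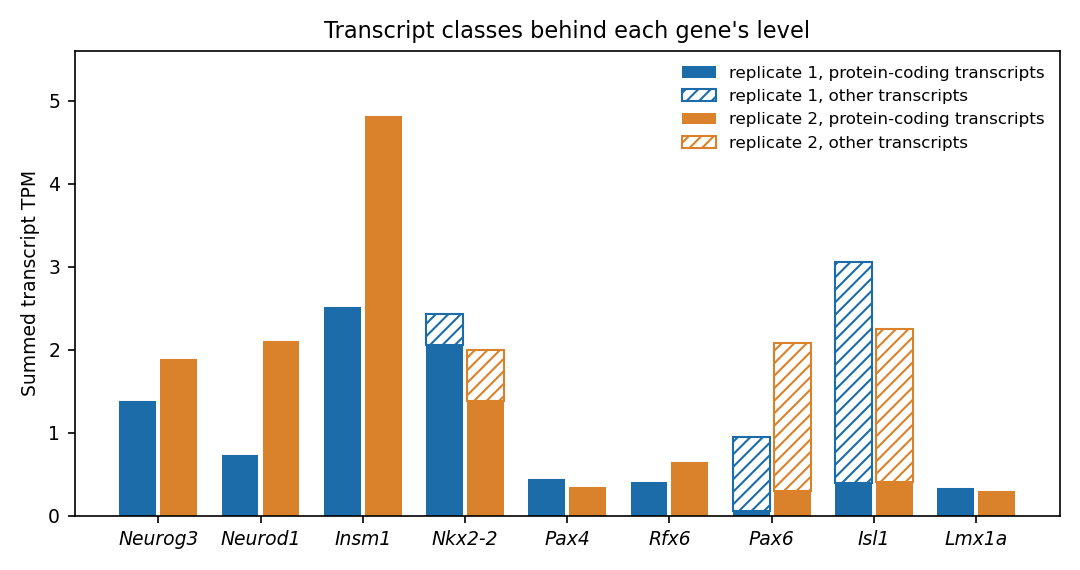
Summed TPM of the transcripts of each factor, as bars for replicate 1 and replicate 2 from 0, with protein-coding transcripts filled and other transcripts hatched. For Pax6 and Isl1 the hatched part is most of the bar in both replicates, and coding transcripts came to 0.06 and 0.30 TPM for Pax6 and to 0.39 and 0.41 TPM for Isl1.

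Between the replicates, Neurod1, Insm1 and Pax6 had intervals apart, with replicate 2 above, and the intervals of the other 6 members overlapped. Of all genes with mean TPM of 0.2 to 5, 43.2% had intervals apart in that direction. On the log2((TPM + 1)/(TPM + 1)) scale, which understates the ratio of low genes, replicate 2 over replicate 1 was 0.85 for Neurod1, 0.73 for Insm1, 0.66 for Pax6, 0.28 for Neurog3 and 0.24 for Rfx6. It was -0.03 for Lmx1a, -0.10 for Pax4, -0.19 for Nkx2-2 and -0.31 for Isl1. The median over the 9 was 0.24, against 0.66 over all genes averaging 1 TPM or more, whose quartiles were 0.31 and 1.00. Those genes had higher levels, with medians of 6.8 and 11.2 TPM in replicates 1 and 2, against 0.95 and 2.00 TPM for the members. The 2 medians of ratios therefore also differ by how much the scale shrinks them.

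Of the 9 members, 0 were over 2-fold higher in either library on this scale. Among all genes averaging 1 TPM or more, as 6 of the members did, 24.9% were over 2-fold higher in replicate 2 and 3.12% in replicate 1. The median level of those genes was above that of the members, and this scale shrinks ratios less at higher levels. With a pseudocount of 0.1 in place of 1, Neurod1 and Pax6 were over 2-fold higher in replicate 2, and with 0.5 Neurod1 alone was. The shares of all genes at these 2 pseudocounts were not computed, so these members cannot be set against the other genes. Intervals were apart with replicate 2 above in 3 of the 9 and with replicate 1 above in 0. With replicate 1 above, the share was 6.4% among genes with mean TPM of 0.2 to 5. Among all genes with a count the shares were 49.2% with replicate 2 above and 5.14% with replicate 1 above.

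The direction depended on the scale for some members. By TPM, 5 members were higher in replicate 2 and 4 in replicate 1, while of all genes with mean TPM of 0.2 to 5 the shares were 78.1% and 21.4%. By counts scaled with TMM (the normalization of edgeR), DESeq2 size factors or centring on the median gene, 3 (Neurod1, Insm1 and Pax6) were higher in replicate 2 and 6 in replicate 1. Of the genes with mean TPM of 0.2 to 5, 45% were higher in replicate 2 with TMM, 45.3% with DESeq2 size factors and 21.8% after centring. Over 2-fold higher in replicate 1 were 1 member with TMM (Nkx2-2), beside 5.7% of these genes, and 3 with DESeq2 size factors (Nkx2-2, Pax4 and Isl1), beside 14.7%. The pseudocount of 1 was added to scaled CPM with TMM (Pax4 0.591 and 0.248) but to scaled counts with DESeq2 (Pax4 26.7 and 11.2). It shrinks the TMM ratios more, so the numbers and shares of the 2 scalings are not alike. With no pseudocount, TMM put Nkx2-2 at -1.35, Pax4 at -1.25 and Isl1 at -1.02. Neurog3 and Rfx6 are the members that changed side between these scales. Both count scalings put the median gene at 0.02, against 0.66 by TPM. After centring, Pax6 was within 2.92e-05 of the median gene. Isl1 changed side when only coding transcripts were counted, at 0.02. Nkx2-2, Pax4 and Lmx1a were higher in replicate 1 and Neurod1, Insm1 and Pax6 in replicate 2 under each of the 10 settings tried. These settings are not separate checks, since a change of pseudocount cannot change the side. The coding-only ratios of Pax4, Lmx1a, Neurod1 and Insm1 also equal their main ones.

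In edgeR the biological coefficient of variation, which measures how replicates vary once counting noise is set aside, was 0.413 across 15001 genes. With counting noise added, it gave each member an SD of 0.85 to 0.98 log2 units for the ratio of 2 libraries. On TMM-scaled counts with no pseudocount, Nkx2-2 was at -1.35 log2 units, Pax4 at -1.25, Isl1 at -1.02, Lmx1a at -0.91 and Neurod1 at 0.75. With a pseudocount of 1 added to the scaled CPM, as in the comparison of scales, Nkx2-2 was at -1.02, Isl1 at -0.65, Lmx1a at -0.44, Pax4 at -0.35 and Neurod1 at 0.57. Without a pseudocount, the 4 negative ratios named lay more than 1 such SD below 0, as did 16.1% of genes with mean TPM of 0.2 to 5 and counts in both libraries. Beyond 2 SD either way were 0 of the 9 members and 7.58% of those genes.

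**Figure D4:**
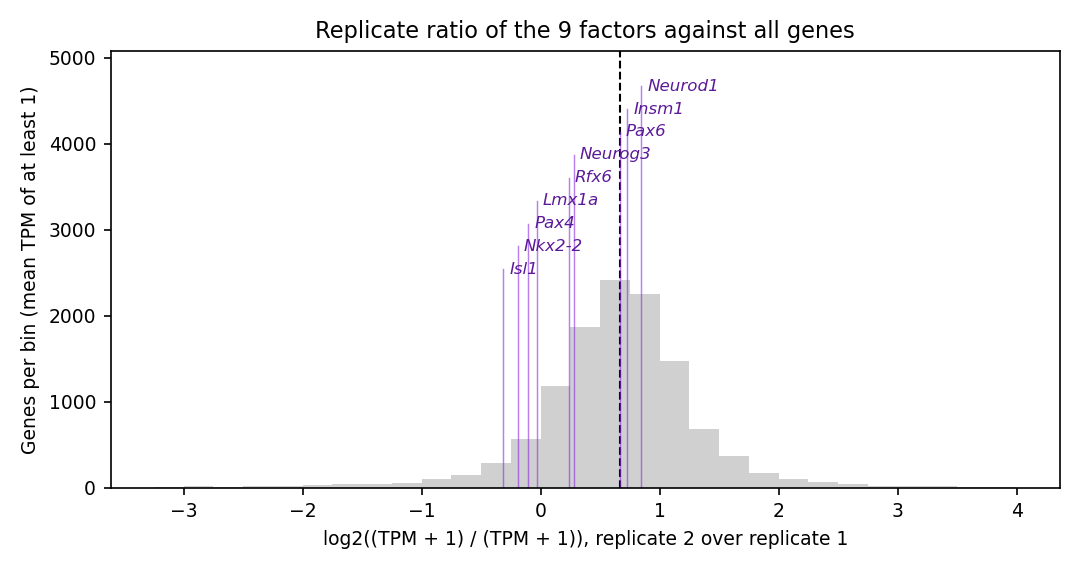
Histogram of log2((TPM + 1)/(TPM + 1)), replicate 2 over replicate 1, over genes averaging 1 TPM or more, with the median gene as a dashed line at 0.66 and the 9 factors as labelled lines; 150 genes lie outside the range drawn. Neurod1, Insm1 and Pax6 lie at or above the median gene and the other 6 below it; Pax4, Rfx6 and Lmx1a have mean TPM under 1 and are not in the histogram.

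RNA of pancreas and stomach moved with the replicates. Of the islet list, the insulin gene Ins2 had 76.7 TPM in replicate 1 but 0.51 TPM in replicate 2, the insulin gene Ins1 had 13.1 and 0.03 TPM, and Ppy, the pancreatic polypeptide gene, was at 9.18 and 0 TPM. The beta cell factor Nkx6-1 was at 0.22 and 0 TPM, Slc30a8 at 0.07 and 0 TPM and G6pc2 at 0.04 and 0 TPM. The intervals of Iapp (1.66 and 1.47 TPM), Mafa (0.79 and 0.74 TPM) and Ucn3 (0.97 and 1.03 TPM) overlapped. Of 9 islet genes, 4 had intervals apart with replicate 1 above and 0 with replicate 2 above, beside 5.14% and 49.2% of all genes with a count. Gast, the hormone gene of gastric G cells, was at 269 and 0.31 TPM. The part of islet and stomach RNA in the members' levels was not tested. In replicate 2 the 9 islet genes had 116 counts in all, with 51 for Ucn3, 36 for Iapp, 25 for Mafa, 3 for Ins2, 1 for Ins1 and 0 for the other 4, and the 9 factors had 13 (Pax4) to 545 (Insm1) counts each. Of the 4 at 0, Slc30a8 and G6pc2 had only 6 and 3 counts in replicate 1, and their intervals overlapped. With TPM rescaled without the acinar, islet and stomach lists, the members summed to 15.2 and 16.4 TPM. The median gene still lay 0.40 log2 units higher in replicate 2 after this rescaling.

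Some of these factors, Isl1 among them, are also known from neurons. Over the enteric neuron list of 11 genes, replicate 1 had 25.8 TPM and replicate 2 had 35.6 TPM. In this list 5 genes had intervals apart with replicate 2 above, beside 49.2% of all genes with a count. Uchl1 was at 8.07 and 10.5 TPM, Tubb3 at 4.38 and 7.75 TPM, the peptide gene Vip at 5.02 and 6.48 TPM and Prph at 3.77 and 3.75 TPM. Stmn2 (0.83 and 0.68 TPM), Elavl4 (0.21 and 0.77 TPM), Chat (0.23 and 0.67 TPM) and Nos1 (0.23 and 0.53 TPM) were under 1 TPM in both libraries. The part of neuronal RNA in the members' levels was not tested.

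Of the 11 genes of Notch signalling and secretory fate, all had at least 1 TPM in both libraries, with a median of 7.91 TPM in replicate 1 and 18.1 TPM in replicate 2, beside 0.95 and 2.00 TPM over the 9 factors. Hes1, the repressor that Notch induces, was at 110 and 243 TPM, the ligand Dll1 at 17.96 and 42.96 TPM, the crypt factor Sox9 at 19.99 and 20.9 TPM, and the goblet and Paneth factor Spdef at 35.4 and 41.7 TPM. Atoh1, the factor of all secretory cells, named here after its values were seen, was at 6.69 and 22.3 TPM, above each of the 9 members in the same library. In this list 8 genes had intervals apart with replicate 2 above and 0 with replicate 1 above, and its median ratio was 0.37. Of the 12260 genes averaging 1 TPM or more, 9014 had intervals apart with replicate 2 above and 781 with replicate 1 above. The count of 8 in 11 was close to that share.

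Of 20 further factors and cofactors linked to endocrine cells, 8 had at least 1 TPM in both libraries. The pioneer factor Foxa2 was at 15.7 and 13.5 TPM, its relative Foxa1 at 14.2 and 13.4 TPM, and Pdx1, a factor of duodenum and pancreas, at 25.3 and 0.12 TPM. The list summed to 111 and 137 TPM with a median ratio of 0.31. Intervals were apart with replicate 2 above in 8 of its genes and with replicate 1 above in 1, Pdx1. The shares of all genes with a count were 49.2% and 5.14%. The 3 genes of this list whose ratio lay closest to the members' median of 0.24 were St18 at 0.22 (0.04 and 0.21 TPM), the homeobox factor Hhex at 0.28 (6.15 and 7.71 TPM) and the corepressor gene Rcor2 at 0.33 (0.96 and 1.47 TPM). That likeness is a difference of ratios over 2 libraries. St18 had only 5 and 6 counts, where 3 counts would have given 0.0226 and 0.106 TPM. At so low a level the pseudocount of 1 shrinks its ratio strongly, so its closeness to the members' median says little.

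A few hormone genes stood far above the factors, while the median granule gene did not. The 11 genes of the hormone list, which includes Tph1 of serotonin synthesis, summed to 776 and 1514 TPM, against 12.2 and 16.4 TPM for the 9 factors in replicates 1 and 2. Intervals were apart with replicate 2 above in 9014 of the 12260 genes averaging 1 TPM or more, and with replicate 1 above in 781. Within the hormone list 7 genes had intervals apart with replicate 2 above and 2 with replicate 1 above, Cck and, named after its values were seen, Ghrl. Its most abundant genes were those of secretin (Sct, 259.2 and 569.7 TPM), peptide YY (Pyy, 110.1 and 488 TPM), somatostatin (Sst, 142 and 244 TPM) and cholecystokinin (Cck, 201 and 138 TPM). Others were much lower, among them Tph1 at 2.19 and 1.39 TPM, Tac1 at 1.48 and 3.08 TPM and Nts at 0.19 and 7.15 TPM, all 3 named after their values were seen. Insl5, a hormone gene of the colon, had no counts, where 3 counts would have given 0.178 and 0.218 TPM. The granule list of 14 genes, which includes the enzyme gene Ddc, summed to 123 and 153 TPM, but 6 of the 14 reached 1 TPM in both libraries. The medians of this list, 0.705 and 1.365 TPM, lay below those of the 9 factors, 0.95 and 2.00 TPM. Ddc, which makes serotonin and dopamine from their precursors, was at 39.3 and 47.6 TPM, Chga (chromogranin A) at 19.5 and 46.8 TPM, the processing inhibitor gene Pcsk1n at 8.69 and 17.3 TPM, and Cpe, carboxypeptidase E, at 42.7 and 18.2 TPM. Of the 14, 9 had intervals apart with replicate 2 above and 2 with replicate 1 above, Cpe and, named after its values were seen, Pcsk2. The shares of all genes with a count were 49.2% and 5.14%.

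**Figure D5:**
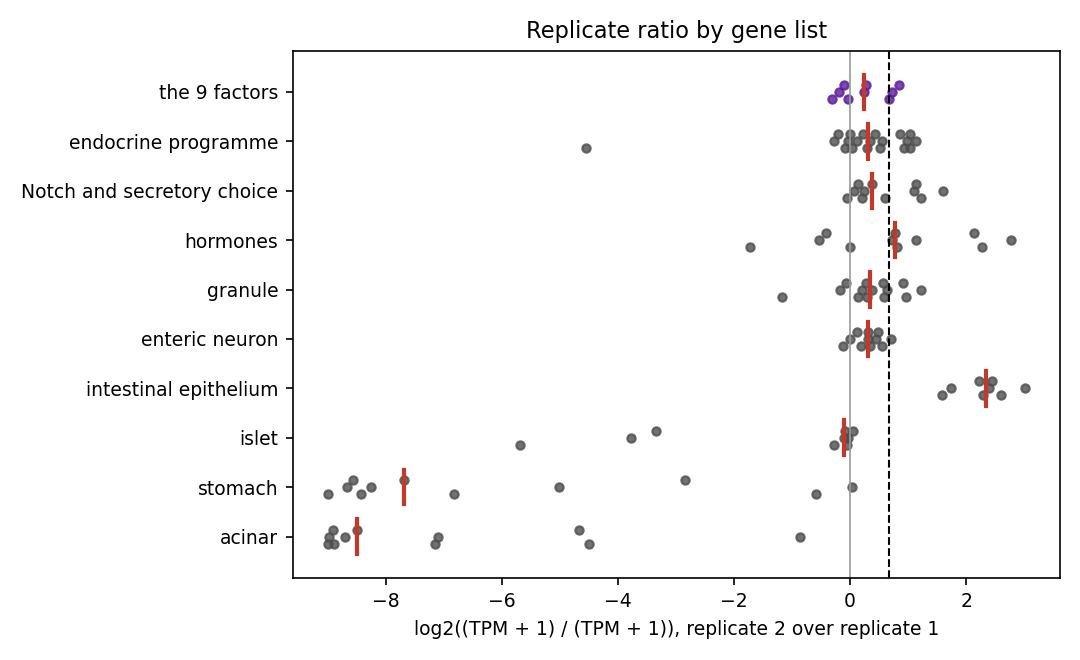
Each point is a gene's log2((TPM + 1)/(TPM + 1)), replicate 2 over replicate 1, by gene list, with the list's median in red, 0 as a grey line and the median gene as a dashed line at 0.66. The 9 factors lie between -0.31 and 0.85 with a median of 0.24, and the programme list has a median of 0.31, while the stomach and acinar lists lie far to the left and the epithelial list to the right.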

How the data were processed

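Each library has a gene and a transcript table. Per the file headers they give expected counts (the authors' estimated fragments per feature), TPM and FPKM, and, for transcripts, the percent of the gene's TPM. The bounds of TPM and FPKM credibility intervals, a signal per feature, were also deposited. The text deposited beside the tables names mm10 and annotation release M4; which aligner and quantifier were used is not given in the sources used. Symbols, coordinates and transcript classes came from GENCODE M21 (GRCm38), matched on stable identifiers for 42462 of 43346 genes (98.0%). Promoters came from RefSeq (GRCm38.p6).

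Detection required a TPM of 1. Ratios used a pseudocount of 1, and 3 counts were the limit a count of 0 allows, which covers counting error only. Dispersion came from edgeR 4.0.16 (R 4.3.3, TMM, default filter, intercept only) on the expected counts after rounding, with DESeq2 1.42.0 as the alternative. The edgeR step was checked on simulated data, and DESeq2 was not. The simulated libraries did not copy the difference in pancreas and stomach RNA between the replicates. Other steps used Python 3.11.15, numpy 2.4.6 and pandas 2.3.3. The SD of a ratio is the square root of 2 squared coefficients of variation plus the reciprocals of both counts, over the natural log of 2. Named genes are all members; of each other list the 4 highest by mean TPM and, where no more than 5, those below 1 TPM in each library; islet, stomach and acinar genes; overlapping genes; the 3 nearest in ratio; and transcripts above 10% of TPM. Some genes that this rule names are not reported here. The members and lists were chosen with earlier results of these data known. Nothing says whether the replicates share animals, so their spread may be partly technical.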

Additional observations from a re-analysis of the deposited data

How the results depend on the processing

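The number of members over 2-fold higher in replicate 2 was 0 and became 2 with a pseudocount of 0.1 and 1 with 0.5, and stayed at 0 under the other settings. The shares of all genes with pseudocounts of 0.1 and 0.5 were not computed. The number over 2-fold higher in replicate 1, followed across settings after the data were seen, was 0 and became 1 with TMM-scaled counts and 3 with DESeq2 size factors, and was 0 under the other settings. The pseudocount was added to scaled CPM with TMM but to scaled counts with DESeq2, so 1 against 3 does not compare the normalizations alone. The members' summed level of 14.3 TPM became 10.2 TPM over protein-coding transcripts only, an alternative chosen after the data were seen, and lay between 12.2 and 16.4 TPM when each replicate was left out. The number of members detected was 4, with 3 to 6 under other minimums, units and single replicates, and the number with intervals apart was 3, with 2 by FPKM. The coefficient of variation of 0.413 became 0.507 without a filter on low counts and 0.315 as the square root of the median dispersion in DESeq2. Of 81 alternative values of single members' ratios 26 left the range set by the credibility intervals. Of 45 alternative levels 5 moved by over 1 SD, and of 27 shares of the major transcript 2 did. The cause was not tested. Many of these alternatives could not move. Leaving out a replicate shifts a mean of 2 by less than 1 SD. The 3 members with 1 transcript have a fixed share, and coding-only levels of 6 members equal the main ones. No paired analysis was possible because the labels give 1 group. Depth limits Pax4 (23 and 13 counts), Lmx1a and the Pax6 transcripts most.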
